A study of Mus musculus with 4 samples.

Results

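F-box proteins are the substrate receptors of SCF ubiquitin ligases, complexes of the adaptor SKP1, the scaffold CUL1 and the RING protein RBX1. The F-box binds SKP1, and the rest of the protein selects the substrate to be ubiquitinated. The family is divided by that substrate-binding part: FBXW proteins carry WD40 repeats, FBXL proteins carry leucine-rich repeats, and FBXO proteins carry other domains or none that is recognised. USP28 is a deubiquitinase known to act on substrates of the receptor FBXW7, whose own gene is left out here. The genes described are the protein-coding genes of GENCODE M21 whose symbol is Fbxw, Fbxl or Fbxo followed by a digit, without Fbxw7. They number 76 among the 55401 genes of the count table, with 22 Fbxw, 18 Fbxl and 36 Fbxo genes.

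The RNA, selected by oligo(dT), came from the R1 line of mouse embryonic stem cells in 2 groups of 2 libraries: control cells of wild-type genotype, and cells labelled Usp28 KO (knockout). Both groups grew in N2B27 with 1 μM of the MEK inhibitor PD0325901, 3 μM of the GSK3 inhibitor CHIR99021 and 10 ng/ml of leukaemia inhibitory factor, so every library comes from cells held in these inhibitors. The labels do not give the kind of Usp28 allele, the number of clones or the cultures behind each library, so the spread that the p-values rest on may be only technical. The question addressed is which F-box genes differ in transcript amount between the cells with and without the Usp28 targeting.

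The libraries held 16595196 to 19533608 counts. Usp28 itself stood at 189 and 197 CPM (counts per 1000000 of the scaled library) in control replicates 1 and 2 and at 181 and 177 CPM in the libraries labelled Usp28 KO, so its gene-level count leaves the label unchecked, and higher or lower refers to the labels throughout. The 8 embryonic stem cell markers examined summed to 5171 and 5135 CPM in control and 4681 and 4763 CPM in Usp28 KO libraries, while 7 fibroblast markers summed to at most 1.94 CPM, with Postn and Lum at 0. Transcript GC content was weighted differently in the replicates numbered 2: the rank correlation across genes between a library's deviation from the others and GC content was -0.39 in control replicate 2 and 0.38 in Usp28 KO replicate 2, against 0.013 and 0.043 in the replicates numbered 1. A fit corrected for GC content was therefore run as well, and its values stand beside many of the results.

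The most abundant F-box transcripts in these cells were Fbxo15, Fbxo5 and Fbxo22, and 14 Fbxw genes on chromosome 9 were close to undetected. Levels are compared between genes as RPKM, the CPM divided by the summed exon length in kilobases. Of the 76 genes, 47 averaged at least 1 RPKM, 19 at least 10 RPKM, and 12 had no read in any library. The members together took 2342 and 2227 CPM in the control libraries and 2277 and 2224 CPM in the Usp28 KO libraries, a range in which the groups overlapped. Of this sum, the Fbxo genes gave 1279 to 1352 CPM per library, the Fbxl genes 584 to 636 CPM and the Fbxw genes 291 to 364 CPM. In all, 56 genes had enough counts to be tested: 8 Fbxw, 15 Fbxl and 33 Fbxo genes.

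**Figure D1:**
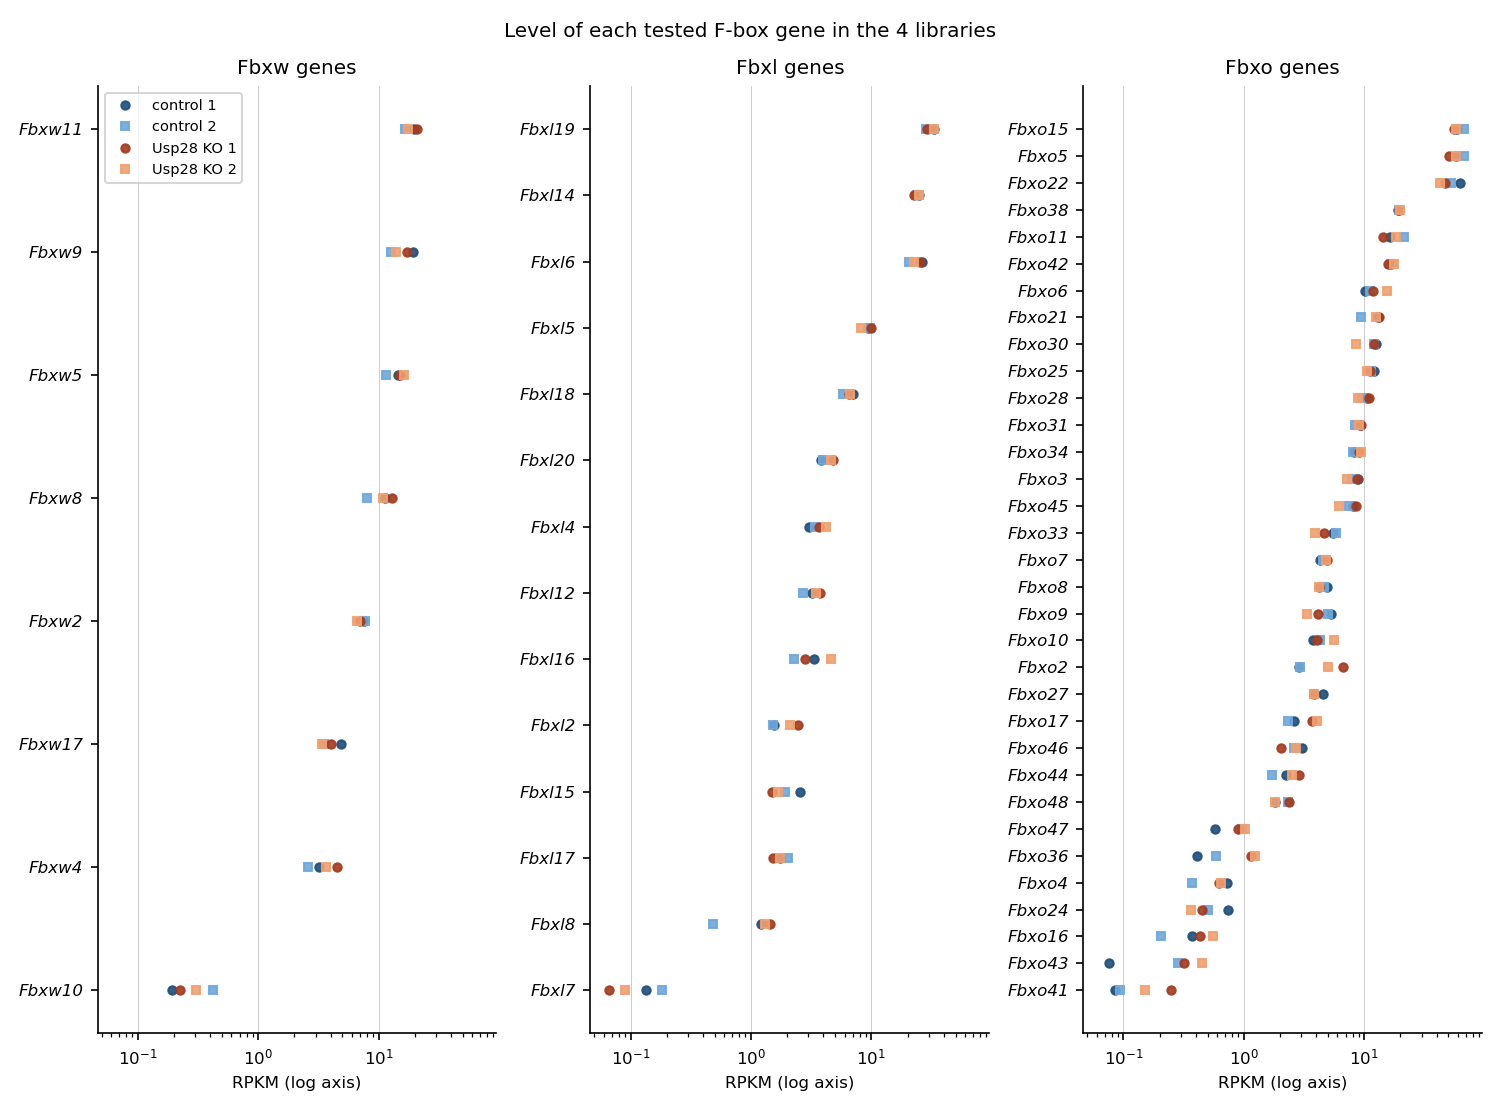
RPKM (log axis) of 55 tested F-box genes in each of the 4 libraries, with circles for replicate 1 and squares for replicate 2 of control (blue) and Usp28 KO (red and orange). Fbxo15, Fbxo5 and Fbxo22 lie above 40 RPKM in every library, and Fbxo2, Fbxo36 and Fbxl2 show both Usp28 KO points to the right of both control points.

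The Fbxw genes fell into a cluster with almost no reads and 8 genes elsewhere that were detected. The chromosome 9 cluster (Fbxw13 to Fbxw16, Fbxw18 to Fbxw22 and Fbxw24 to Fbxw28, mm10, between 109139447 and 109790670) is a run of mouse genes that arose by local duplication. It had 2 reads in all 4 libraries together, 1 in Fbxw13 in control replicate 2 and 1 in Fbxw20 in Usp28 KO replicate 1. The other 12 genes were at 0 in every library, and a count of 0 allows up to 0.154 to 0.181 CPM per gene (3 counts of a library's total). This holds only if reads that match several copies were counted, and their handling is not given in the sources used here. The oocyte markers Bmp15, Zp1, Zp2 and Oosp1 were also at 0, and the 8 oocyte markers examined summed to 1.70 to 2.41 CPM. All 8 Fbxw genes outside the cluster were tested. RefSeq promoter windows of 300 bases, 250 before and 50 after the start on GRCm38.p6, matched 57 of the 76 genes. The windows of 11 cluster genes held 0 to 4 CpG dinucleotides, with a median of 1, and those of 6 tested Fbxw genes held 3 to 31, with a median of 17. Fbxw10, tested at 0.286 RPKM, had 3, which is within the cluster's range. The windows of all 41 tested members held 3 to 56, with a median of 20. Those of 5 members outside the cluster with too few counts to test held 3 to 27, with a median of 19. The 5 were Fbxo40 with 3, Fbxl22 with 6, Fbxo39 with 19, Fbxl13 with 22 and Fbxl21 with 27. Over 27025 RefSeq windows the median was 7. The cluster's windows resembled each other, with a pairwise identity between 64.7% and 97.0% (median 85.6% over 55 pairs, highest for Fbxw14 and Fbxw28). The exons of the copies were not compared. CpG content and level are given as a description of the same genes. Below are stretches of 120 bases upstream of the start that touch no GENCODE exon, with CG in capitals: Fbxw5 for an expressed Fbxw gene, Fbxw14, Fbxw28 and Fbxw16 for the cluster, and Fbxo2, Fbxo36 and Fbxo22 for the members with the 2 smallest p among the higher and the smallest among the lower.
Fbxw5 (chr2:25500630-25500749, plus strand): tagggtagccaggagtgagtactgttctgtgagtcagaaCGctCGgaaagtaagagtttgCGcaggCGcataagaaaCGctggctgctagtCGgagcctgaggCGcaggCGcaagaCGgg
Fbxw14 (chr9:109287677-109287796, minus strand): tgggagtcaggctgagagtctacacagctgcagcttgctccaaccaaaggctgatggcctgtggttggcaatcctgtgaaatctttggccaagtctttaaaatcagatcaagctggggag
Fbxw28 (chr9:109339660-109339779, minus strand): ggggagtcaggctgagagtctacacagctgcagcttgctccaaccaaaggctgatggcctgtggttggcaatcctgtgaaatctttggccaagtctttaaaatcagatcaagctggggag
Fbxw16 (chr9:109449141-109449260, minus strand): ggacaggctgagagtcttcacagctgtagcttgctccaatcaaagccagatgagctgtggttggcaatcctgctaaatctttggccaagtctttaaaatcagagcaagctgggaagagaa
Fbxo2 (chr4:148160501-148160620, plus strand): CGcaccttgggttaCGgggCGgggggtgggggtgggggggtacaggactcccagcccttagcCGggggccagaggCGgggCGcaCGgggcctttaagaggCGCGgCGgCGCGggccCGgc
Fbxo36 (chr1:84839721-84839840, plus strand): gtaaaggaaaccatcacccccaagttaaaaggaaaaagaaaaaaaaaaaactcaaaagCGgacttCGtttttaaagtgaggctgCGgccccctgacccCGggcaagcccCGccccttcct
Fbxo22 (chr9:55208805-55208924, plus strand): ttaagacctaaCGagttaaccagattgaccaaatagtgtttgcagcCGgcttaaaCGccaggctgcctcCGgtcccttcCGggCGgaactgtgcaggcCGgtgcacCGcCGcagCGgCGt
The Fbxw5, Fbxo2, Fbxo36 and Fbxo22 stretches hold 9, 13, 5 and 11 CG dinucleotides, and the 3 cluster stretches hold 0. The E-box CACGTG, the motif that MYC and MAX bind, was in the windows of 3 of the 57 genes (5.26%) and in 7.24% of all windows. The letters ACGTG (searched on both strands, and contained in the E-box), the core of the element that hypoxia-inducible factors bind, were in 12 of the 57 (21.1%) and in 19.7% of all windows.

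**Figure D2:**
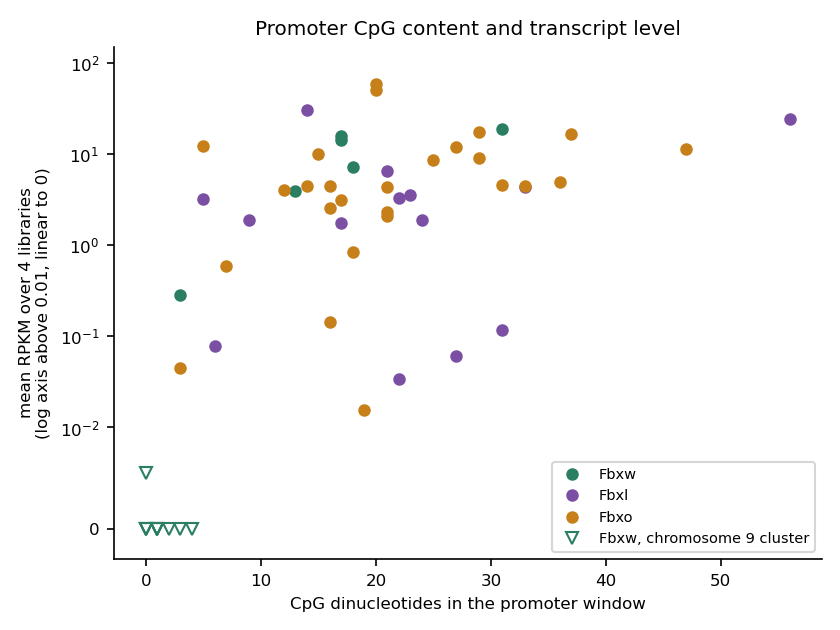
CpG dinucleotides in the promoter window (x axis) against the mean RPKM over 4 libraries (y axis, log above 0.01 and linear to 0) for the 57 F-box genes with a RefSeq window, coloured by subfamily. The 11 genes of the chromosome 9 cluster (open triangles) sit at 0 to 4 CpG and at or near 0 RPKM.

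No F-box gene passed the test between the groups. By edgeR's quasi-likelihood test with Benjamini-Hochberg adjustment over all 15341 genes tested, 0 of the 56 were higher and 0 lower in the Usp28 KO libraries at an adjusted p under 0.05, where 0% of all tested genes were called in either direction. DESeq2 called 0 higher and 0 lower of the 54 members to which it gave an adjusted p (0.578% of its 13668 genes with an adjusted p were called higher and 0.351% lower). At an unadjusted p under 0.05 edgeR counted 5 members higher (Fbxo2, Fbxo36, Fbxo17, Fbxl2 and Fbxo41) and 1 lower (Fbxo22), which is 8.93% and 1.79% of the 56, beside 6.86% and 4.34% of all tested genes. DESeq2 counted 3 higher (Fbxo2, Fbxo36 and Fbxo17) and 0 lower of the 56 at an unadjusted p (5.36% and 0%). It gave 2.48% and 2.05% over 27042 genes, but that set was not filtered as the 56 were and includes genes with very few reads, so the shares are not on the same footing. By sign alone, 31 members were higher (55.4%; 49.4% of all tested genes) and 25 lower (44.6%; 50.6% of all tested genes). In a fit with the replicate number as a block, 4 members were called higher and 0 lower, where 6.29% and 4.67% of all tested genes were called. Both Usp28 KO libraries lay above both control libraries for 17 members (30.4%; 21.4% of all tested genes) and below them for 13 (23.2%; 20.4% of all tested genes).

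The median log2 fold change (Usp28 KO minus control) was 0.021 over the 56 members and -0.0040 over all tested genes. It was 0.017 for the 8 Fbxw genes, 0.029 for the 15 Fbxl genes and 0.016 for the 33 Fbxo genes, so the subfamilies lay close to each other and to the table as a whole. Of the 56, 46 (82.1%) stayed within 0.5 of 0 on this scale, as did 80.9% of all tested genes. Past 0.5 in size were 8 members that were higher (14.3%; 12.2% of all tested genes) and 2 that were lower (3.57%; 6.90% of all tested genes). Across the 56 members, which share these libraries and are not replicates, the log2 fold change correlated with transcript GC content at r = 0.21, against 0.27 across all tested genes; after the GC correction these were -0.054 and 0.013.

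**Figure D3:**
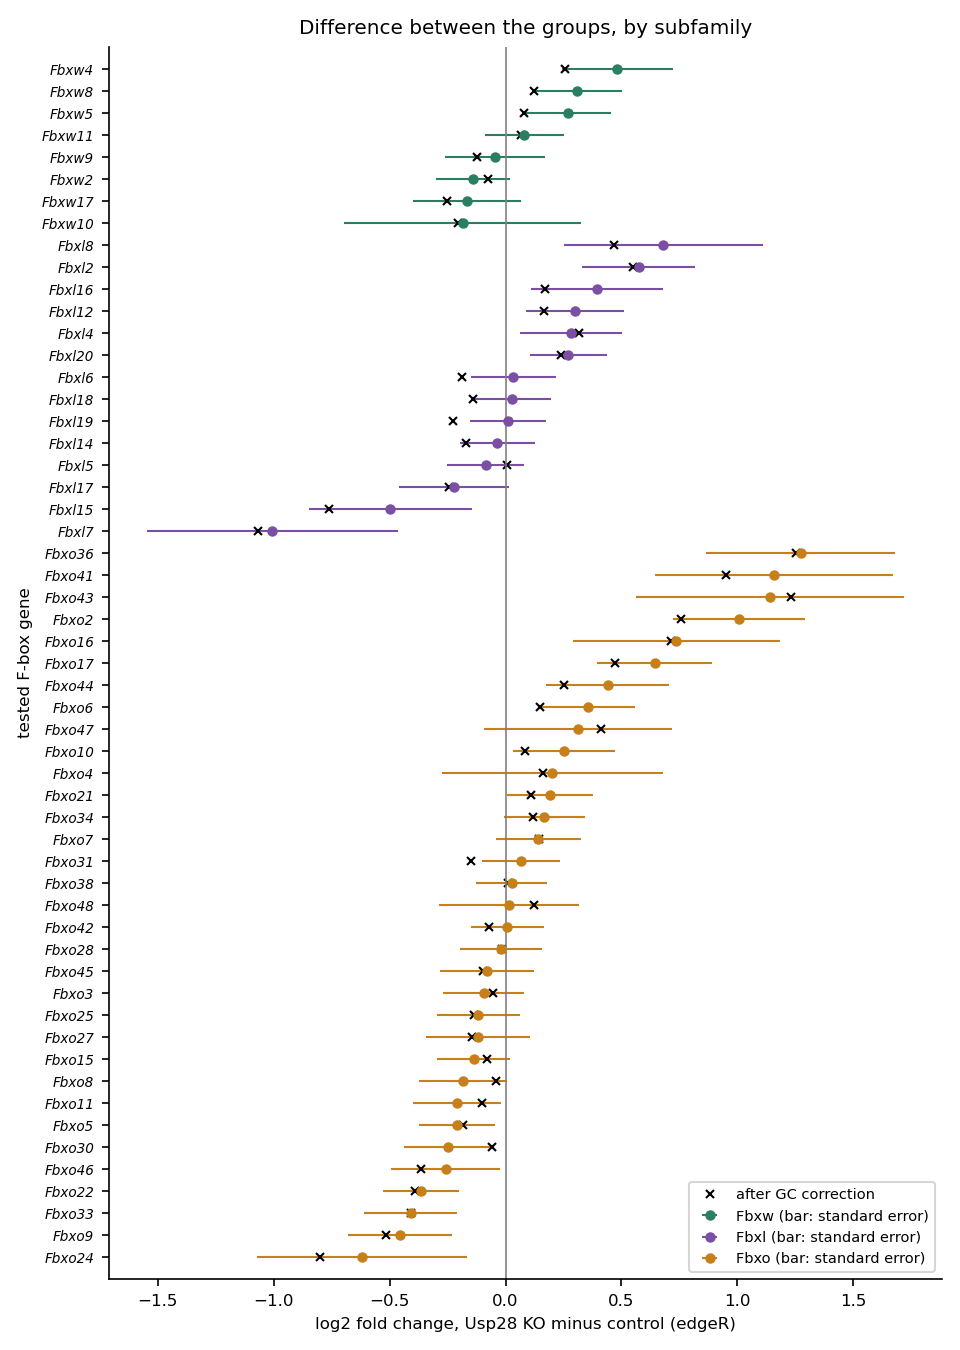
Log2 fold change (x axis, Usp28 KO minus control, edgeR) with its standard error for 55 tested F-box genes, sorted within Fbxw, Fbxl and Fbxo; crosses mark the value after GC correction. The medians of the subfamilies lie between 0.016 and 0.029, and the widest bars belong to genes with few counts, such as Fbxo43.

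FBXO2, FBXO6, FBXO17, FBXO27 and FBXO44 share an F-box-associated domain. Some of the 5 are known for binding sugars on glycoproteins and sending misfolded or misplaced ones to degradation. The grouping of the 5 genes was made after the values were seen. In 4 of these 5 genes both Usp28 KO libraries lay above both control libraries; the exception was Fbxo27. Over all tested genes that share was 21.4%, and since the group was formed from these values its count supports nothing. Fbxo2 (ENSMUSG00000041556, chromosome 4, 148160621 to 148166424), first described as a receptor of neurons, was at 3.74 and 3.78 CPM in the control libraries and at 8.61 and 6.51 CPM in the Usp28 KO libraries. The control libraries were nearly equal, and the lower Usp28 KO library was still well above them. Its log2 fold change was 1.01 ± 0.28 (edgeR, adjusted p = 0.199; DESeq2, adjusted p = 0.246), the smallest p among the members. Fbxo17, on chromosome 7, was at 6.50 and 5.86 CPM in control and at 9.20 and 10.1 CPM in Usp28 KO libraries (0.64 ± 0.25; edgeR, adjusted p = 0.347).

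Fbxo44 and Fbxo6 lie beside Fbxo2 on chromosome 4. Fbxo44 was at 6.76 and 5.17 CPM in control and 8.61 and 7.63 CPM in Usp28 KO libraries (0.44 ± 0.26). Fbxo6, the most abundant of the 5 per length at 12.2 RPKM, was at 22.5 and 24.8 CPM in control and 26.3 and 34.4 CPM in Usp28 KO libraries (0.36 ± 0.20). With a library left out Fbxo44 ranged from 0.26 to 0.65 and Fbxo6 from 0.15 to 0.54. Neither passed, with edgeR adjusted p of 0.583 and 0.555. Fbxo27, the neighbour of Fbxo17, was at 13.9 and 11.7 CPM in control and 11.8 CPM in each Usp28 KO library (-0.12 ± 0.22), so its groups overlapped. None of the 5 shares annotated exon bases with another gene. Their transcript GC content ran from 48.7% for Fbxo27 to 61.8% for Fbxo2. After GC correction the log2 fold changes were 0.76 for Fbxo2, 0.47 for Fbxo17, 0.25 for Fbxo44, 0.15 for Fbxo6 and -0.14 for Fbxo27, and their median moved from 0.44 to 0.25.

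Fbxo2 is a gene of neurons, as is Fbxo41, so neuronal markers were read in the same libraries. Fbxo41 was a low transcript, with 11 and 10 counts in control and 31 and 19 in Usp28 KO libraries (1.16 ± 0.51; edgeR, adjusted p = 0.424; 0.95 after GC correction). The 5 neuronal markers summed to 187 and 169 CPM in control and 188 and 171 CPM in Usp28 KO libraries, nearly all of it Stmn2. Among the 5, Snap25 and Rbfox3 were higher in both Usp28 KO libraries than in both control libraries, as were 21.4% of all tested genes. Snap25 was at 2.14 and 2.93 CPM in Usp28 KO against 1.28 and 2.02 CPM in control libraries. Rbfox3 had 6 and 11 counts in Usp28 KO against 2 and 3 in control libraries. Syt1 was lower in both, with 0 counts in each Usp28 KO library against 2 and 4 in control libraries. Rbfox3 and Syt1 had too few counts to be tested. For Map2 and Stmn2 the groups overlapped, with log2 fold changes of 0.031 and 0.0034. The part of these markers in the Fbxo2 and Fbxo41 values was not tested.

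**Figure D4:**
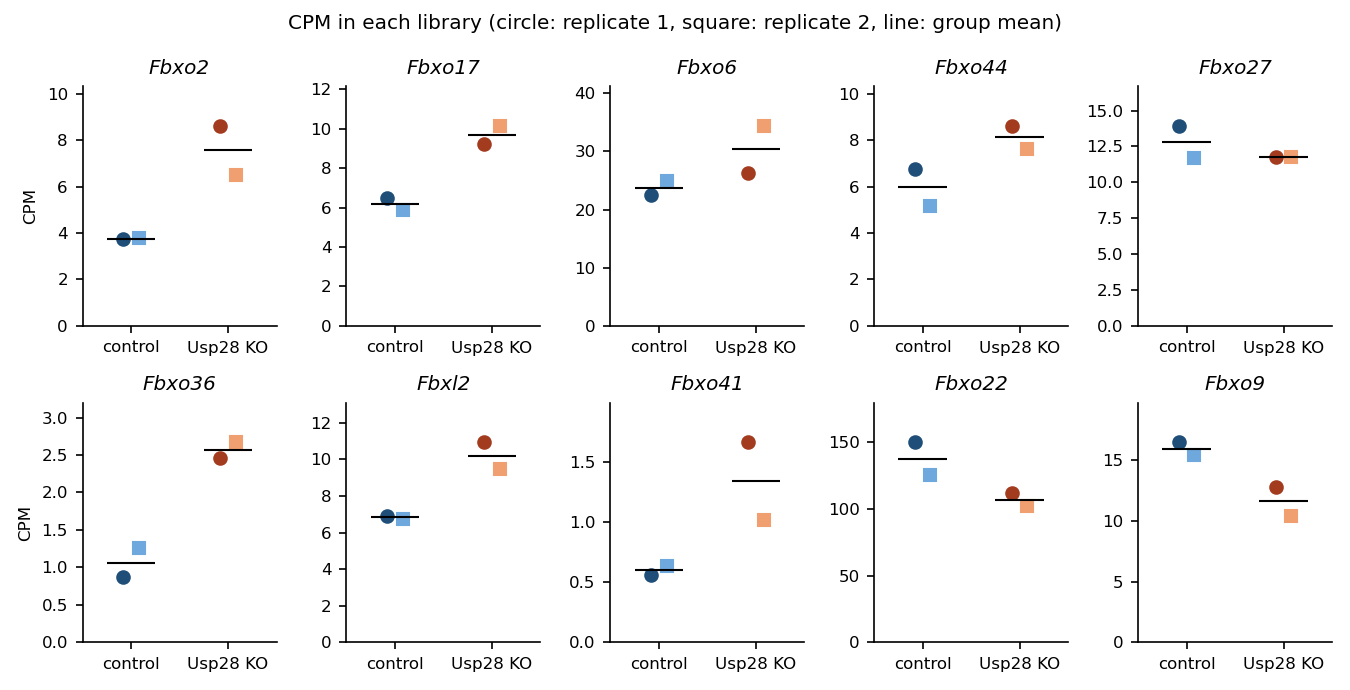
CPM in each library for the 5 genes grouped by the F-box-associated domain, 3 further genes with higher Usp28 KO values and 2 with lower ones. The y axes start at 0, with circles for replicate 1, squares for replicate 2 and lines for the group mean. Fbxo27 is the gene of the 10 whose groups overlap.

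The other Fbxo genes with the largest differences were low transcripts. Fbxo36 had 17 and 20 counts in control and 46 and 50 in Usp28 KO libraries, or 0.870 and 1.26 against 2.46 and 2.67 CPM. Its log2 fold change of 1.27 ± 0.41 was the highest of the members (edgeR, adjusted p = 0.267; 1.25 after GC correction). With a library left out Fbxo36 ranged from 1.02 to 1.54. Fbxo43, which encodes EMI2, the inhibitor of the anaphase-promoting complex that holds eggs in meiosis, had 6 and 18 counts in control and 24 and 34 in Usp28 KO libraries (1.14 ± 0.58; edgeR, adjusted p = 0.491). That value was 0.44 without control replicate 1 and 2.30 without control replicate 2. Fbxo16 had 29 and 13 counts against 32 and 41 (0.74 ± 0.45), and was 1.24 without control replicate 1 and 0.38 without control replicate 2. Fbxo24 had 36 and 20 counts in control against 21 and 17 (-0.62 ± 0.45), and was -0.31 without control replicate 1. About 9.95% of the annotated exon bases of Fbxo24 are shared with other genes.

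Fbxo22, a receptor for the histone demethylase KDM4A and the heme-binding repressor BACH1, was the member with the smallest p on the lower side. It was at 149.8 and 125 CPM in control and 112 and 102 CPM in Usp28 KO libraries, so the higher Usp28 KO library was below the lower control library. The log2 fold change was -0.36 ± 0.16 (edgeR, adjusted p = 0.432; unadjusted p = 0.0447), and -0.39 after GC correction. It ranged from -0.50 to -0.23 with a library left out. Of its exon bases 15.4% overlap Nrg4 on the other strand, and the strand setting of the counting is not given in the sources used here. Fbxo9, which acts in the turnover of the mTOR regulators TEL2 and TTI1, was at 16.5 and 15.4 CPM in control and 12.8 and 10.5 CPM in Usp28 KO libraries (-0.46 ± 0.22; edgeR, adjusted p = 0.477). Fbxo33 was at 24.8 and 26.0 CPM in control and 20.9 and 17.4 CPM in Usp28 KO libraries (-0.41 ± 0.20; edgeR, adjusted p = 0.478).

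Fbxo15 and Fbxo5 were the most abundant members, and neither passed the test. Fbxo15 is known as a gene of undifferentiated embryonic stem cells driven by OCT4 and SOX2. It was at 198 and 225 CPM in control and 188 and 196 CPM in Usp28 KO libraries (60.1 RPKM on average, between 56.0 and 66.9), and differed by -0.14 ± 0.16 on the log2 scale (edgeR, adjusted p = 0.805; -0.081 after GC correction). Pou5f1 and Sox2, which encode OCT4 and SOX2, had log2 fold changes of -0.020 and 0.050. Of the 8 stem cell markers, Tfcp2l1 (-0.54) and Zfp42 (-0.33) were lower in both Usp28 KO libraries without overlap. Over all tested genes 20.4% were lower in this way. The edgeR adjusted p of Tfcp2l1 and Zfp42 was 0.250 and 0.491, and with the replicate block 5.47e-05 and 0.035. That fit called 4.67% of all tested genes lower. The part of these markers in the Fbxo15 values was not tested. Fbxo5 encodes EMI1, which inhibits the anaphase-promoting complex in interphase. It was at 116 and 135 CPM in control and 101 and 116 CPM in Usp28 KO libraries (58.4 RPKM on average, between 50.3 and 67.3), and differed by -0.21 ± 0.16 (edgeR, adjusted p = 0.685). Fbxo22 followed at 51.1 RPKM, between 42.6 and 62.6, so the ranges of these 3 overlapped. For both Fbxo15 and Fbxo5 the higher Usp28 KO library was just below the lower control library. Fbxo38 was the next of the Fbxo genes at 19.3 RPKM, with 107 and 109.7 CPM in control and 109 and 112 CPM in Usp28 KO libraries (0.026 ± 0.15).

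Other Fbxo receptors with known roles had differences close to their standard errors or smaller. Fbxo11, a receptor for the repressor BCL6, was at 71.4 and 94.1 CPM in control and 62.5 and 80.7 CPM in Usp28 KO libraries (-0.21 ± 0.19, and -0.10 after GC correction). Fbxo31 and Fbxo4, both linked to cyclin D1 turnover, had log2 fold changes of 0.066 ± 0.17 and 0.20 ± 0.48, and the GC correction took Fbxo31 to -0.15. Fbxo7, mutated in a form of parkinsonism, was at 26.4 and 28.2 CPM in control and 30.5 and 29.6 CPM in Usp28 KO libraries (0.14 ± 0.18), without overlap. Fbxo45, a receptor of developing neurons, was at 33.6 and 31.3 against 35.5 and 26.0 CPM (-0.080 ± 0.20). The muscle receptors Fbxo32, known as atrogin-1, and Fbxo40 were not tested, with 2 to 7 and 1 to 7 counts per library, and the muscle markers Ckm, Myod1 and Myf5 were at 0. The 6 muscle markers summed to 46.7 and 50.6 CPM in control and 22.9 and 36.2 CPM in Usp28 KO libraries, nearly all of it Ttn. Fbxo39 had 0 counts in both control libraries and 1 in each Usp28 KO library.

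Among the Fbxl genes, Fbxl2 had the smallest p and Fbxl19 the highest level. Fbxl2 (chromosome 9, 113963637 to 114046191) was at 6.91 and 6.75 CPM in control and 10.9 and 9.44 CPM in Usp28 KO libraries, a gap between the groups wider than that within either. Its log2 fold change was 0.57 ± 0.24 (edgeR, adjusted p = 0.399; 0.55 after GC correction), and 11.2% of its exon bases overlap Ubp1 on the other strand. Fbxl20, its closest relative, was at 46.6 and 48.4 CPM in control and 58.5 and 56.2 CPM in Usp28 KO libraries (0.27 ± 0.17; edgeR, adjusted p = 0.591). Fbxl8 was at 2.56 and 1.01 CPM in control and 3.05 and 2.77 CPM in Usp28 KO libraries (0.68 ± 0.43), where control replicate 2 stood apart. That value was 1.52 without control replicate 1 and 0.18 without control replicate 2. Fbxl7 had 17 and 19 counts in control and 8 and 11 in Usp28 KO libraries, with the lowest log2 fold change of the members, -1.01 ± 0.54 (edgeR, adjusted p = 0.522). Fbxl15 was at 3.43 and 2.59 CPM in control and 2.03 and 2.24 CPM in Usp28 KO libraries (-0.50 ± 0.35, and -0.76 after GC correction), and 25.6% of its exon bases overlap Cuedc2.

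The abundant Fbxl genes had log2 fold changes near 0. Fbxl19, whose protein binds unmethylated CpG islands through a CXXC zinc finger, was at 151 and 128 CPM in control and 131 and 151 CPM in Usp28 KO libraries (0.0098 ± 0.16, and -0.23 after GC correction). Fbxl14, a receptor for the SNAI1 repressor, was at 73.1 and 71.1 against 66.8 and 74.0 CPM (-0.036 ± 0.16, and -0.17 after GC correction), and its promoter window held 56 CpG, the most of the members. Fbxl6 was at 57.0 and 44.8 against 55.4 and 48.9 CPM (0.034 ± 0.18), with -0.19 after GC correction. Fbxl21 was not tested, with 1 to 11 counts per library. Fbxl5, the iron sensor that controls iron regulatory protein 2, was at 91.9 and 94.7 against 96.5 and 79.4 CPM (-0.085 ± 0.17, and 0.0069 after GC correction). Fbxl4, which limits mitophagy, was at 11.6 and 12.9 CPM in control and 13.9 and 15.8 CPM in Usp28 KO libraries (0.28 ± 0.22; edgeR, adjusted p = 0.686), with no overlap of the groups.

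The 8 tested Fbxw genes all had log2 fold changes between -0.19 and 0.48. Fbxw4 (dactylin, linked to limb development) was at 10.1 and 8.26 CPM in control and 14.2 and 11.6 CPM in Usp28 KO libraries, without overlap. Its log2 fold change was 0.48 ± 0.24 (edgeR, adjusted p = 0.484) and 0.26 after GC correction, and 21.4% of its exon bases overlap a gene on the other strand. Fbxw5 was at 44.2 and 35.2 CPM in control and 45.9 and 50.03 CPM in Usp28 KO libraries (0.27 ± 0.18; 0.081 after GC correction). Fbxw8, which works with the scaffold CUL7, was at 62.04 and 44.6 against 72.0 and 60.3 CPM (0.31 ± 0.19; 0.12 after GC correction), with 33.4% of its exon bases shared with a gene on the other strand. For these 3 genes the transcript GC content was 60.1%, 57.5% and 57.7%. Fbxw11 (β-TrCP2, a receptor for β-catenin and inhibitors of NF-κB) had the highest level of the subfamily, 18.7 RPKM, with 85.1 and 72.1 CPM in control and 90.0 and 76.3 CPM in Usp28 KO libraries (0.080 ± 0.17). Fbxw9 was at 65.9 and 42.7 against 58.0 and 47.2 CPM (-0.046 ± 0.21), where the control libraries differed more from each other than the groups did. Fbxw2 was at 71.2 and 72.8 CPM in control and 67.1 and 63.4 CPM in Usp28 KO libraries (-0.14 ± 0.16), without overlap. Among the members not named so far, the log2 fold changes lay between -0.26 (Fbxo46) and 0.39 (Fbxl16). Fbxw7 itself was at 63.9 and 59.8 CPM in control and 51.6 and 48.5 CPM in Usp28 KO libraries (-0.30 ± 0.17; edgeR, adjusted p = 0.536). Its adjusted p was 0.159 with the replicate block and 0.0365 with the block and GC correction together (edgeR). The latter fit called 2285 of the 15341 genes tested.

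The other parts of the SCF machinery were read from a list of 46 genes. The list held the core, the NEDD8 pathway that activates CUL1 and other cullins, and the exchange factors and COP9 signalosome that reset cullins. It also held the enzymes that hand over ubiquitin, and F-box genes with other symbols. Of the 46 genes 44 were tested. After adjustment edgeR called 0 of the 44 in each direction, where 0% of all tested genes were called. DESeq2 called 0 in each direction of the 43 to which it gave an adjusted p. Over all its genes with an adjusted p it called 0.578% higher and 0.351% lower. In the fit with the replicate block 4 were called lower (Cul1, Cops2, Kdm2a and Ube2d3) and 0 higher, where 4.67% of all tested genes were called lower and 6.29% higher. Ube2d3 was at 346 and 604 CPM in control and 325 and 406 CPM in Usp28 KO libraries, so its groups overlapped. Its log2 fold change was -0.38 ± 0.24 without the block and -0.10 after GC correction. With a library left out Ube2d3 ranged from -0.73 to 0.069. At an unadjusted p under 0.05 edgeR counted 0 higher (6.86% of all tested genes) and 2 lower (4.55%; 4.34% of all tested genes), Cul1 and Cops2. DESeq2 counted the same genes, beside 2.48% higher and 2.05% lower over 27042 genes, a set not filtered as the 44 were. The median log2 fold change of the 44 was -0.13 (-0.11 after GC correction), against -0.0040 over all tested genes. Both Usp28 KO libraries lay below both control libraries in 15 of them (34.1%; 20.4% of all tested genes) and above in 3 (6.82%; 21.4% of all tested genes).

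Cul1, the scaffold on which every SCF receptor acts, was at 145 and 131 CPM in control and 105 and 89.9 CPM in Usp28 KO libraries. Both Usp28 KO libraries were below both control libraries, and the log2 fold change was -0.51 ± 0.16 (edgeR, adjusted p = 0.269; DESeq2, adjusted p = 0.243; -0.47 after GC correction). With the block its edgeR adjusted p was 0.00297. It ranged from -0.62 to -0.41 with a library left out. The adaptor gene Skp1a was at 183 and 166 CPM in control and 233 and 168 CPM in Usp28 KO libraries (0.20 ± 0.18), where Usp28 KO replicate 1 stood apart. Rbx1, the RING subunit gene, was at 70.1 and 64.1 against 71.8 and 65.6 CPM (0.034 ± 0.16). Cops2 and Cops3, subunits of the COP9 signalosome that removes NEDD8 from cullins, differed by -0.36 ± 0.16 and -0.34 ± 0.17 on the log2 scale. With the GC correction Cops2 was at -0.11 and Cops3 at -0.34. Of 12 neddylation genes, the co-ligase genes Dcun1d1, Dcun1d2, Dcun1d3 and Dcun1d4 and the NEDD8 protease gene Senp8 had both Usp28 KO libraries below both control libraries, with log2 fold changes from -0.35 to -0.26, and Nedd8 had both above (0.18 ± 0.17), where 20.4% of all tested genes were below and 21.4% above in this way. After GC correction Senp8 was at -0.063, Dcun1d1 at -0.13 and Nedd8 at 0.050, and the median of the 12 went from -0.15 to -0.063.

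**Figure D5:**
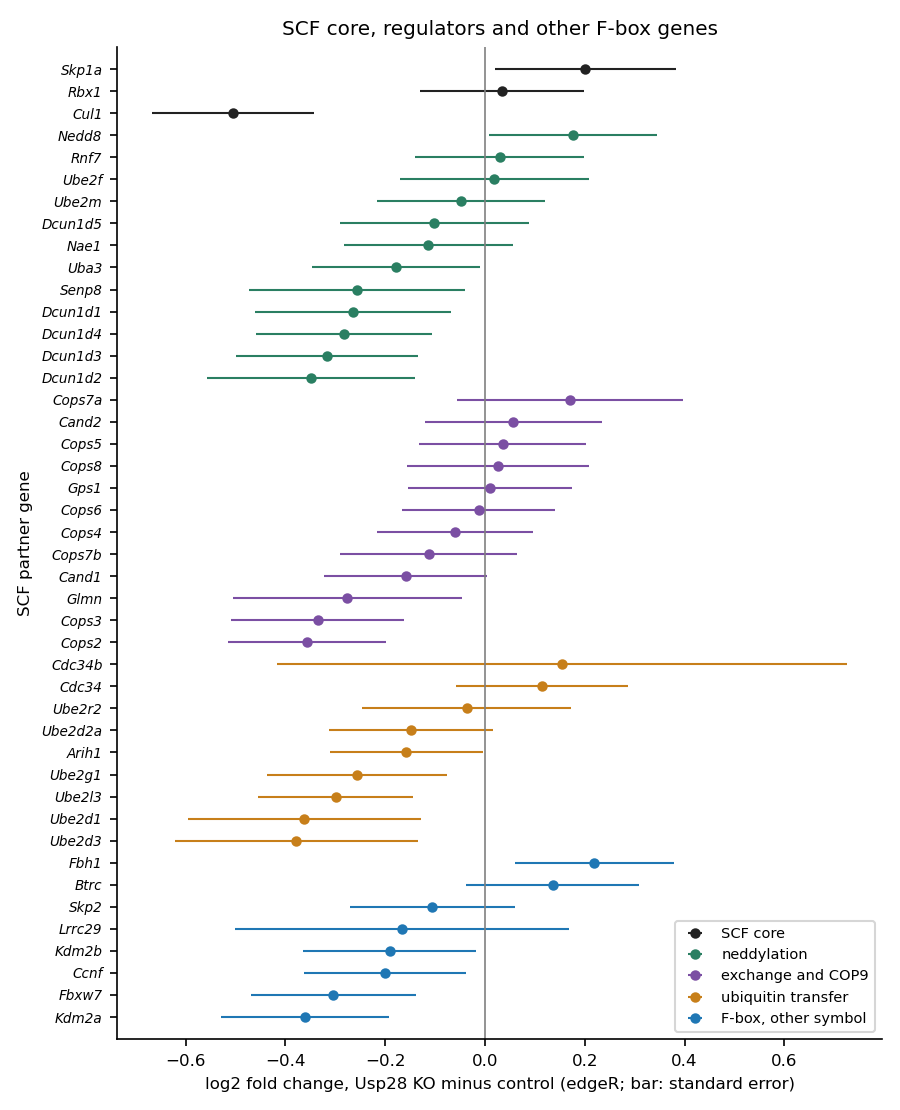
Log2 fold change (x axis, Usp28 KO minus control, edgeR) with its standard error for the 44 tested SCF partner genes, coloured by role. Cul1 has the lowest value, -0.51, and the median over all 44 is -0.13.

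Among F-box genes that carry other symbols, Ccnf (cyclin F) was the most abundant, at 306 and 262 CPM in control and 244 and 251 CPM in Usp28 KO libraries (-0.20 ± 0.16). Kdm2a, a histone demethylase gene with a CXXC zinc finger like that of Fbxl19, was at 189.9 and 198 CPM in control and 133 and 169 CPM in Usp28 KO libraries (-0.36 ± 0.17; edgeR, adjusted p = 0.453). Its paralog Kdm2b had a log2 fold change of -0.19 ± 0.17. Skp2, the receptor for the cell cycle inhibitor p27, was at 82.7 and 99.4 against 85.6 and 83.6 CPM (-0.11 ± 0.16). Btrc, the paralog of Fbxw11, was at 42.8 and 42.1 CPM in control and 43.5 and 49.8 CPM in Usp28 KO libraries (0.14 ± 0.17, and 0.26 after GC correction). Nccrp1 encodes a protein with the F-box-associated domain that FBXO2 carries. It had too few counts to be tested, with 1 count in each control library and 10 and 9 in the Usp28 KO libraries. It is named because its values were seen to stand apart.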

How the data were processed

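Raw read counts per gene were deposited by the authors for 4 libraries, in the layout of featureCounts per the file headers; HISAT2, featureCounts, DESeq2 and mm10 are named in the submitters' processing notes. Of 55401 identifiers, 55141 matched GENCODE M21 without the version suffix and 260 did not. How strand and multiply matching reads were handled is not given in the sources used here, so overlapping genes and any near-identical copies are uncertain. Summed exon length (another deposited column, in bases) gave RPKM.

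Counts were analysed in R 4.3.3 with edgeR 4.0.16: filterByExpr (minimum count 10, minimum total 15) left 15341 genes, library sizes were scaled by TMM, and the 2 groups were compared in a quasi-likelihood fit (robust option), p-values being adjusted by Benjamini-Hochberg over all of these genes and called under 0.05. CPM values use TMM-scaled library sizes, and values come as control replicates 1 and 2, then Usp28 KO replicates 1 and 2 (n = 2 per group). Fold changes carry standard errors. Alternatives were DESeq2 1.42.0 on the whole table, limma-voom (limma 3.58.1), other scalings and filters, a replicate block, a GC correction (natural spline with 5 degrees of freedom on the longest transcript's GC content) and leaving out each library. The edgeR, DESeq2 and limma-voom fits were also run on simulated counts with known changes. Those counts held neither a GC trend nor an effect shared by a replicate number. They therefore do not bear on the GC correction or the replicate block.

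Members and lists were chosen with earlier results of these data known. Named were, per subfamily, the 4 genes with the highest RPKM and the 4 with the smallest p; genes past 0.5 in log2 fold change without overlap and with at least 1 CPM; and a fixed set of genes. Other members were named after their values were seen. The values of 1 member are not reported here, though it is counted in the totals.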

Additional observations from a re-analysis of the deposited data

How the results depend on the processing

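The members' count of calls, 0 by edgeR, was also 0 in the alternatives other than the 2 with a replicate block. The labels number the libraries 1 and 2 in both groups without saying what a number shares. Across the 10704 genes averaging at least 5 CPM, the deviations of the replicates numbered 1 from their group means correlated at 0.520. Those of the replicates numbered 2 are their mirror image, so they add no further comparison. With the replicate block 4 members were called (Fbxo2, Fbxo36, Fbxo17 and Fbxl2, all higher), which is 7.14% of the 56. It also called 4 partner genes (Cul1, Cops2, Kdm2a and Ube2d3, all lower), or 9.09% of the 44. Of all 15341 genes it called 1681, with 6.29% higher and 4.67% lower. With the block and GC correction together 6 of the 56 members were called (Fbxo2, Fbxo36 and Fbxl2 higher, Fbxo22, Fbxo33 and Fbxo9 lower). So were 7 of the 44 partner genes (among them Cul1 and Fbxw7, all lower) and 2285 of the 15341 genes. The calls over all genes are not split by direction here, so the direction of the 6 and the 7 has no share beside it. The count over all genes, 0 by edgeR, was 127 by DESeq2, 322 with no filter, 29 with library totals, 21 with upper-quartile scaling, and 142 to 346 with a library left out (346 without Usp28 KO replicate 2); the cause was not tested.

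The members' median log2 fold change was 0.085 with library totals, 0.078 with upper-quartile scaling and -0.021 to 0.092 with a library left out. With a library left out it was -0.031 to 0.19 for Fbxl and -0.016 to 0.25 for Fbxw genes, both highest without control replicate 1.

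Of the 36 named genes followed through the 14 alternatives, 9 changed sign somewhere, and edgeR called none of them. With library totals and upper-quartile scaling Fbxl14 was 0.024 and 0.021 and Fbxw9 0.011 and 0.0097. With the GC correction, alone and with the block, Fbxl19 was -0.2284 and -0.2288, and Fbxl6 -0.187 and -0.188. With a library left out the ranges were -0.12 to 0.036 for Fbxl14, -0.11 to 0.13 for Fbxl19, -0.14 to 0.22 for Fbxl6, -0.044 to 0.20 for Fbxw11, -0.33 to 0.30 for Fbxw9, -0.38 to 0.011 for Kdm2b, -0.039 to 0.099 for Rbx1, -0.055 to 0.41 for Skp1a and -0.23 to 0.024 for Skp2. A left-out library leaves 1 in its group, which is then assumed to vary like the other group. With 2 libraries a group and fewer than 60 counts per library, the values of Fbxo36, Fbxo41, Fbxo43, Fbxo16, Fbxo24, Fbxl7 and Fbxl8 are imprecise.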
